A study of Homo sapiens with 6 samples.

Results

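The cytosolic heat shock and DNAJ chaperone genes were followed in SCC25 cells, an established HNSCC line from an oral squamous cell carcinoma, wild type in genotype. The cell line follows the sample labels, whereas the study's text names SCC9, another oral squamous line, for its transcriptome. One condition was hypoxia (1% O2) for 12 h and the other was normoxia in an air incubator for the same 12 h, with 3 RNA sequencing libraries each. The genes were chosen by name. All protein coding genes of the HSPA, HSPB, HSPD, HSPE, HSPH, DNAJA, DNAJB and DNAJC families were taken, together with HSP90AA1, HSP90AB1 and the heat shock transcription factor HSF1, and 7 genes whose products work inside the endoplasmic reticulum (ER) or at the mitochondrial import pore were left out. That gave 58 of the 21776 genes in the table, of which 15717 are protein coding. The choice by name also keeps chaperones of the mitochondria, of which 7 were listed (HSPA9, HSPD1, HSPE1, DNAJA3, DNAJC11, DNAJC15 and DNAJC30). It keeps DNAJ proteins of the ER membrane too, of which 6 were listed, so the group is wider than the cytosol. Total counts were 30186813, 36076088 and 32272716 in hypoxia libraries 1 to 3, and 37278703, 29637189 and 29981208 in normoxia libraries 1 to 3.

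Molecular chaperones hold, fold and pass on other proteins. HSP70 proteins (the HSPA genes) bind short greasy stretches of unfolded chains in a cycle driven by ATP, in which DNAJ proteins, also called HSP40, bring the client and start ATP hydrolysis, and the HSP110 proteins and other exchange factors release it. HSP90 receives kinases, steroid receptors and other clients from HSP70. Small heat shock proteins, such as HSPB1, hold unfolding proteins without ATP. The chaperonin ring of HSPD1 and HSPE1 encloses proteins inside mitochondria. HSF1 binds heat shock elements, inverted repeats of the letters GAA, upstream of many of these genes.

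The markers of the line were checked first. Of 7 markers of squamous epithelium, 6 were expressed, among them KRT5, a basal keratin, with 3494 to 4424 counts per library. KRT14, the partner of KRT5, had 0 counts in all libraries but one, which had 1. The 7 markers summed to 1061, 1027 and 1046 CPM (counts scaled to a common library size by TMM) under hypoxia and to 888, 899 and 948 CPM under normoxia. The sum was higher under hypoxia through CDH1 (log2-fold change 1.35), and without it was 587, 545 and 565 CPM against 705, 719 and 748 CPM. Of the 6 tested, CDH1 and KRT17 were higher, KRT5, EPCAM and SFN were lower and TP63 did not pass. Lists of genes that mark other cells summed far lower, and the sum of each list was higher under hypoxia. Not every gene in them rose, and DCN had 2, 0 and 0 counts under hypoxia against 2, 4 and 0. The 6 fibroblast markers summed to 22.1, 18.7 and 17.1 CPM under hypoxia and to 4.03, 3.15 and 5.65 CPM under normoxia, almost all of it COL1A1 (518 to 667 against 78 to 149 counts), while COL3A1 and DCN had at most 4 counts in any library. LUM (27, 9 and 8 against 1, 1 and 2 counts) and PDGFRB (24, 19 and 20 against 13, 7 and 11 counts) were low but also had more counts in each hypoxia library. LUM was too low to test, and PDGFRB was so low in normoxia library 2 (7 counts) that no test is read from it. The 3 leukocyte markers in the table summed to 6.32, 5.48 and 5.76 against 0.860, 0.734 and 1.62 CPM, nearly all CD14, with PTPRC and CD3E at 0 to 2 counts. Endothelial markers summed to 1.54, 1.24 and 1.48 against 0.296, 0.315 and 0.744 CPM, mostly CDH5, and PECAM1 and VWF had at most 10 counts. The part of such cells in the chaperone results was not tested. In a bulk library, fewer cells of a type and less RNA per cell cannot be told apart. The hypoxia response was present in the libraries labelled hypoxia, where 15 of 15 well known hypoxia response genes were higher, against 39.2% of all genes tested. The list was drawn up with earlier results of these data known. CA9 had 7993, 10312 and 9495 counts under hypoxia against 1198, 781 and 2002.

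Most of the abundant chaperones were lower under hypoxia, and a smaller number of genes, many of them rare, were higher. Of the 58 genes, 52 passed edgeR's filter on low counts and were tested among 14255 genes by its quasi-likelihood test with Benjamini-Hochberg adjustment. At an adjusted p under 0.05, 44 of the 52 (84.6%) differed, where 77.8% of all genes tested did, so that a call alone says little here. The direction was less even. Lower under hypoxia were 29 of the 52 (55.8%), where 38.5% of all genes tested were lower, and 15 (28.8%) were higher, where 39.2% of all genes were. A log2-fold change under -1 was reached by 10 (19.2%, against 10.5% of all genes) and one over 1 by 9 (17.3%, against 19.9%), a count that was 3 of 9 with limma on log2(FPKM + 1) without a filter and 5 of the 5 that could be tested on log2(FPKM + 0.1) with a mean of 1 FPKM or more. The hypoxia and normoxia libraries did not overlap for 45 of the 52 (86.5%, against 80.5%). The median log2-fold change was -0.33 over the 52 genes and 0.02 over all genes tested, and that of the chaperone genes was -0.13 with limma on log2(FPKM + 1) without a filter. DNAJC28 and HSPA1L passed the filter only through the hypoxia libraries, so they had to be higher there, and without them 13 of 50 were higher, 7 of them with a log2-fold change over 1 (14.0%). Without genes that passed through 1 condition alone, 35.2% of all genes were higher and 13.7% had a log2-fold change over 1.

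**Figure D1:**
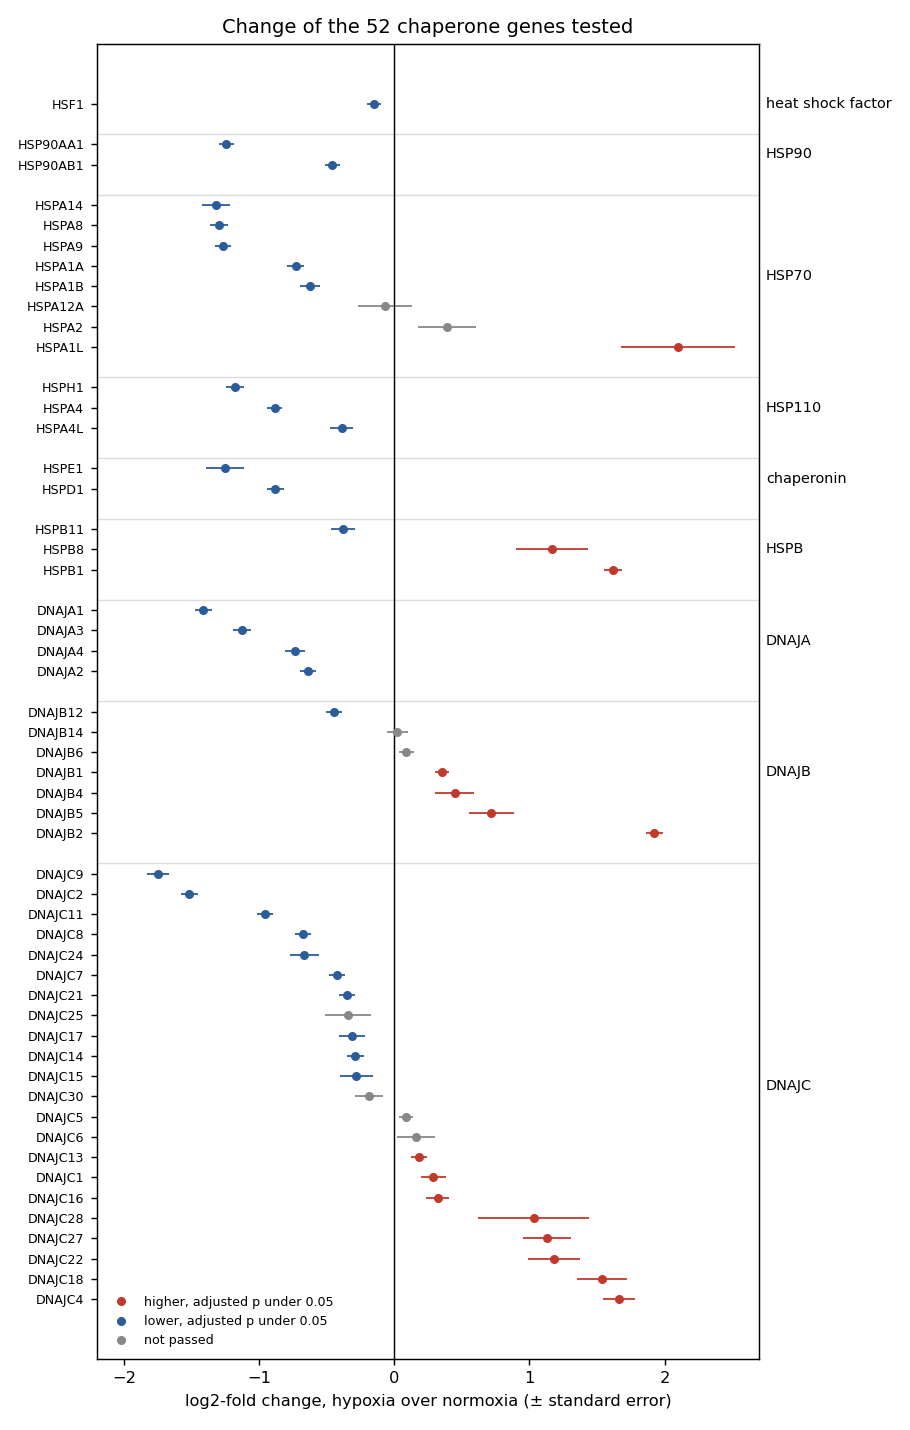
The log2-fold change of hypoxia over normoxia (horizontal axis) with its standard error for each of the 52 chaperone genes tested, grouped by family and coloured by the edgeR call at an adjusted p under 0.05. All 4 DNAJA genes, both HSP90 genes, all 3 HSP110 genes and both chaperonin genes lie left of 0, while HSPB1, HSPB8 and DNAJB2 lie beyond 1 on the right.

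The families held different counts of calls, and differences between families were not tested. The HSP90, HSP70, HSP110 and chaperonin genes together had 12 lower and 2 not passed of the 14 tested apart from HSPA1L, with a median log2-fold change of -0.88. All 4 DNAJA genes were lower (median -0.93). Among all genes tested, 38.5% were lower and 39.2% higher, and 57.6% of those at 20 FPKM or more were lower. Without genes that passed the filter through 1 condition alone, 42.2% of all genes were lower and 35.2% higher. Of the 7 DNAJB genes tested, 4 were higher, 1 was lower and 2 did not pass (median 0.35). The 21 DNAJC genes tested apart from DNAJC28 divided into 7 higher, 10 lower and 4 not passed (median -0.28). Of the 3 HSPB genes tested, HSPB1 and HSPB8 were higher, and HSPB11, which works in the transport of cilia, was lower.

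Taken as a share of the libraries, the 58 genes held less of the RNA under hypoxia. They took 1.36%, 1.40% and 1.29% of all counts in the normoxia libraries and 0.911%, 0.863% and 0.896% in the hypoxia libraries, and the conditions did not overlap. HSPA8, HSP90AA1 and HSP90AB1 alone held 0.835% ± 0.0405 under normoxia and 0.461% ± 0.0169 under hypoxia (SD, n = 3 each). HSPB1 moved the other way, from 0.0316%, 0.0295% and 0.0373% to 0.105%, 0.103% and 0.104% of all counts. The 36 DNAJ genes together held 0.231% under normoxia and 0.187% under hypoxia.

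**Figure D2:**
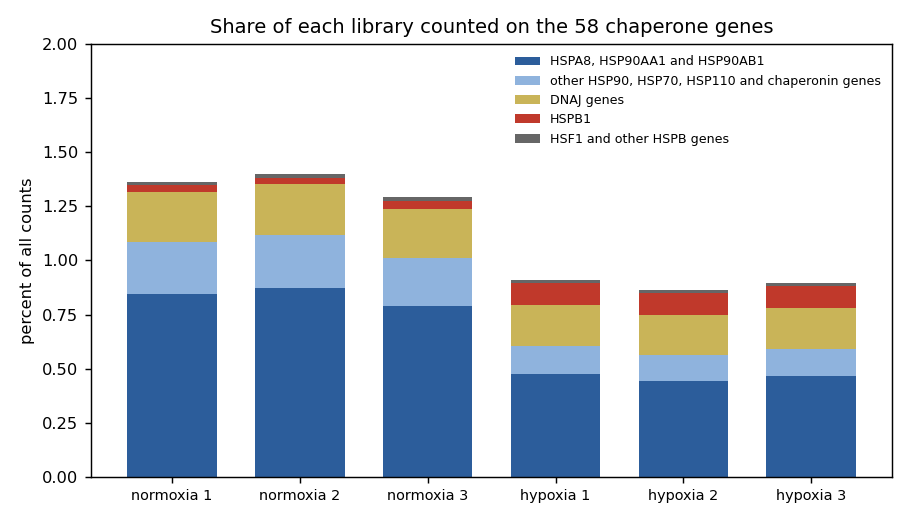
Bars give the percent of all counts that fell on the 58 chaperone genes in each of the 6 libraries, stacked by group of genes. The normoxia bars reach 1.29% to 1.40% and the hypoxia bars 0.863% to 0.911%, with a larger part from HSPB1 under hypoxia.

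Heat shock elements were looked for upstream of the genes, because HSF1 is the textbook regulator of this group. RefSeq promoters (GRCh38.p14) were at hand for 51 of the 58 genes, with 68 start sites, and the 250 bases before each start were searched on both strands. The genes without an entry were DNAJC1, DNAJC22, DNAJC24, HSF1, HSPA12B, HSPA14 and HSPB11. Elements of 3 units, GAANNTTCNNGAA or TTCNNGAANNTTC, stood before 6 of the 68 starts (8.82%) and before 0.441% of 35116 starts of all genes. They belong to HSPA8, HSP90AA1, HSP90AB1 and HSPD1, which were lower under hypoxia, to DNAJB6, which did not pass the test, and to HSPA6, which was too low to test. Those of the first 5 genes are printed here 5′ to 3′ on the strand of the gene, each in a window of 30 bases, with the bases that match the element in capitals.
HSPA8, chr11:123062171-123062200, minus strand: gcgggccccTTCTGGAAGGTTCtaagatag
HSPA8, chr11:123062346-123062375, minus strand: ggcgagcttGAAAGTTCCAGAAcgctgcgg
HSP90AA1, chr14:102087104-102087133, minus strand: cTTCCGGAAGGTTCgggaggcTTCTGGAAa
HSP90AB1, chr6:44247769-44247798, plus strand: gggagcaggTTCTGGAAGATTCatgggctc
HSP90AB1, chr6:44247822-44247851, plus strand: ctgagattgTTCTGGAAGCTTCtggattct
HSPD1, chr2:197500061-197500090, minus strand: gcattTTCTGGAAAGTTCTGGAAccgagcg
DNAJB6, chr7:157336864-157336893, plus strand: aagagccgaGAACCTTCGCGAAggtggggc
The HSPA8 and HSP90AB1 promoters each hold this element at more than 1 separate place. The elements printed for HSP90AA1, HSP90AB1 and HSPD1 stand before 1 start of the gene and lie downstream of another. The nearest to a start is that of HSPA8 at positions -55 to -43, counted from the start site. In the HSPD1 window the capitals are overlapping matches of 3 units that start at positions -245 and -240. In the HSP90AA1 window the last 8 capitals form a separate match of 2 units.

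The shorter element of 2 units, GAANNTTC or TTCNNGAA, which is contained in every match of 3 units, stood before 18 of the 68 starts (26.5%) and before 11.6% of all starts. It was found for 4 of 11 higher genes with a promoter entry, HSPA1L and DNAJC28 left out, and for 10 of 25 lower ones, where 12% of all genes called in either direction had it. Windows of higher and lower genes are printed in the same way. The match is identical in letters for HSPA1A, HSPA1B and HSPB8, and that of HSPB1 and DNAJB1 also stands before DNAJA4, HSPA8 and HSP90AA1, which were lower.
HSPA1A (lower), chr6:31815426-31815455, plus strand: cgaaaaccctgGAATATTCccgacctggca
HSPA1B (lower), chr6:31827622-31827651, plus strand: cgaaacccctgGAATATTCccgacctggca
HSPB8 (higher), chr12:119178832-119178861, plus strand: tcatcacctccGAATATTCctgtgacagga
HSPB1 (higher), chr7:76302480-76302509, plus strand: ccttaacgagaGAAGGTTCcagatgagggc
DNAJB1 (higher), chr19:14518456-14518485, minus strand: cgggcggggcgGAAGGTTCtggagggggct
DNAJB4 (higher), chr1:78004830-78004859, plus strand: agcatttgctgTTCTAGAAagtacagagac
The DNAJB1 window lies downstream of another start of that gene. HSPA1L stands head to head with HSPA1A, and its only match is the HSPA1A window read on the other strand. The core letters of the hypoxia response element, ACGTG or GCGTG on either strand, stood before 58.8% of the chaperone starts and 43.2% of all starts. They were found for 6 of the same 11 higher and 18 of the 25 lower genes, where 61.5% of all higher and 66.8% of all lower genes had them. These matches describe the letters and carry no test of binding.

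HSF1 itself changed little. Its FPKM (fragments per kilobase of gene, scaled to the library total) was 52.2, 49.7 and 52.5 under hypoxia and 54.6, 56.3 and 54.8 under normoxia. The hypoxia libraries lay just below the others, with a log2-fold change of -0.15 ± 0.05 (SE) and an adjusted p of 0.0192. The call was lost when only genes with at least 10 counts in every library were tested (adjusted p = 0.219), when hypoxia library 2 or normoxia library 2 was left out (adjusted p = 0.0731 and 0.0571), and when FPKM above the filter were tested with limma (adjusted p = 0.0927 and 0.0987 with pseudocounts of 1 and 0.1), while limma without a filter kept it (adjusted p = 0.0311). Of the other heat shock factors, HSF2 was slightly lower (log2-fold change -0.24) and HSF4 was higher, with 345, 401 and 333 counts against 80, 60 and 100 (log2-fold change 2.09, adjusted p = 4.56e-09).

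The HSP90 genes encode the cytosolic HSP90 pair, HSP90AB1 being the constitutive form and HSP90AA1 the form that stress raises. HSP90AA1 had 235, 220 and 218 FPKM under hypoxia and 516, 531 and 495 FPKM under normoxia. The groups were far apart and the change was 2.37-fold lower (log2-fold change -1.24 ± 0.05, adjusted p = 1.81e-12). HSP90AB1 had 849, 823 and 862 FPKM against 1133, 1151 and 1084 FPKM, lower in every hypoxia library but by less (log2-fold change -0.46 ± 0.05, adjusted p = 3.77e-07). The level of HSP90AA1 relative to HSP90AB1, in FPKM, was 0.277, 0.267 and 0.253 under hypoxia and 0.456, 0.461 and 0.456 under normoxia.

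Among the HSP70 genes, HSPA8, the constitutive HSP70 of the cytosol, was the chaperone gene with the highest FPKM under normoxia and the third highest under hypoxia. Its FPKM was 612, 526 and 583 under hypoxia and 1383, 1457 and 1253 under normoxia. The conditions were far apart, and the gene was 2.46-fold lower under hypoxia (log2-fold change -1.30 ± 0.07, adjusted p = 2.08e-11). HSPA9, the HSP70 of the mitochondrial matrix, had 58.0, 54.0 and 57.7 FPKM against 133, 139 and 123 FPKM (log2-fold change -1.27 ± 0.06, adjusted p = 4.44e-12). HSPA14, an HSP70 of the ribosome, had 4.83, 4.74 and 5.54 FPKM against 12.6, 12.8 and 11.1 FPKM (log2-fold change -1.32 ± 0.11, adjusted p = 3.47e-09). For neither of these did the conditions overlap.

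HSPA1A and HSPA1B encode the same stress-induced HSP70, and they too were lower. HSPA1A had 21.0, 18.3 and 18.9 FPKM under hypoxia and 31.4, 29.7 and 32.2 FPKM under normoxia (log2-fold change -0.73 ± 0.06, adjusted p = 1.36e-08). HSPA1B had 26.4, 21.3 and 22.6 FPKM against 35.1, 35.5 and 34.0 FPKM (log2-fold change -0.62 ± 0.07, adjusted p = 4.55e-07). These transcripts share much of their sequence: of all stretches of 100 bases in HSPA1A, 69.9% also occur in HSPA1B (GENCODE v29), so how reads were divided between them is uncertain. Summed, they had 115, 94.5 and 102 CPM under hypoxia and 164, 166 and 165 CPM under normoxia. The summed values did not overlap, with an exact two-sided permutation p of 0.1, the smallest that 3 against 3 libraries allow, and a log2-fold change of -0.67 when edgeR was given the sum as 1 gene (adjusted p = 4.09e-08).

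The remaining HSP70 genes were rare. HSPA1L, known from the testis, had 47, 58 and 43 counts under hypoxia and 17, 3 and 13 under normoxia (log2-fold change 2.10 ± 0.42). It passed the filter through the hypoxia libraries alone, which fixed its direction, so no test is read from it. HSPA6, an HSP70 that is otherwise seen after strong heat, had 3, 4 and 4 counts under hypoxia and 9, 5 and 3 under normoxia, too few to test, and 27.6% of its stretches of 100 bases also occur in the related HSPA7. HSPA2 (log2-fold change 0.39, adjusted p = 0.105) and HSPA12A (log2-fold change -0.07, adjusted p = 0.757) did not pass, and HSPA12B had at most 5 counts in a library.

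The HSP110 genes, whose products release nucleotide and client from HSP70, were all lower. HSPH1 had 28.5, 24.3 and 25.5 FPKM under hypoxia and 58.3, 59.2 and 54.2 FPKM under normoxia (log2-fold change -1.18 ± 0.07, adjusted p = 2.79e-11). HSPA4 had 36.0, 35.1 and 35.1 FPKM against 63.4, 66.2 and 59.9 FPKM (log2-fold change -0.88 ± 0.06, adjusted p = 1.35e-10). The third, HSPA4L, changed by -0.39 on the log2 scale (adjusted p = 0.000417) and lost its call with limma on FPKM without a filter. The libraries did not overlap for the first 2 of them, and for HSPA4L they were apart in CPM but overlapped in FPKM.

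The chaperonin of the mitochondria was lower in both parts. HSPD1, the ring, had 219, 202 and 217 FPKM under hypoxia and 393, 399 and 345 FPKM under normoxia (log2-fold change -0.88 ± 0.06, adjusted p = 7.51e-10). HSPE1, its lid, had 16.1, 11.2 and 11.9 FPKM against 30.4, 34.0 and 26.0 FPKM (log2-fold change -1.25 ± 0.14, adjusted p = 3.18e-07). The level of HSPE1 was only 0.0614 (hypoxia) and 0.0793 (normoxia) of that of HSPD1 in FPKM. HSPE1 shares 17% of its stretches of 100 bases with other genes, and the effect of this on its counts was not tested. Of the 7 genes listed at the start as mitochondrial chaperones, 6 were lower and none was higher, with a median of -0.96. DNAJC30 did not pass (log2-fold change -0.19, adjusted p = 0.103). The count holds for that list only, which was drawn up with earlier results of these data known and need not be complete. Of all genes tested, 57.6% of those at 20 FPKM or more and 33.9% of those under it were lower. DNAJC15, of the inner membrane, was lower by the smallest amount of the 6, with libraries that overlapped (log2-fold change -0.28, adjusted p = 0.0476), and its call was lost under most alternatives. DNAJC11, of the mitochondrial outer membrane, had 19.9, 19.6 and 19.2 FPKM against 38.1, 37.6 and 34.5 FPKM (log2-fold change -0.96 ± 0.06), and 27.9% of its exon bases lie opposite exons of THAP3, which was higher (log2-fold change 0.51).

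HSPB1, the small heat shock protein HSP27, was higher under hypoxia, unlike most of the abundant genes. It had 1349, 1327 and 1338 FPKM under hypoxia and 406, 380 and 479 FPKM under normoxia. The hypoxia libraries lay close together and far above the others, 3.07-fold higher (log2-fold change 1.62 ± 0.07, adjusted p = 9.83e-13). HSPB1 thereby had the highest FPKM of the 58 genes under hypoxia, and the fourth highest under normoxia. Its level relative to HSPA8, in FPKM, was 2.34 ± 0.164 under hypoxia and 0.312 ± 0.063 under normoxia (SD, n = 3 each). HSPB8, a partner of BAG3 in selective autophagy, was also higher, though at low levels (1.73, 1.30 and 1.35 against 0.519, 0.635 and 0.735 FPKM, log2-fold change 1.17 ± 0.26, adjusted p = 0.000652). HSPB11, which works in the transport of cilia, was lower (log2-fold change -0.38, adjusted p = 0.000789), and HSPB6 had at most 8 counts in a library. Of the alpha-crystallins, small heat shock proteins outside the chosen names, CRYAB had 0 or 1 counts in every library.

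**Figure D3:**
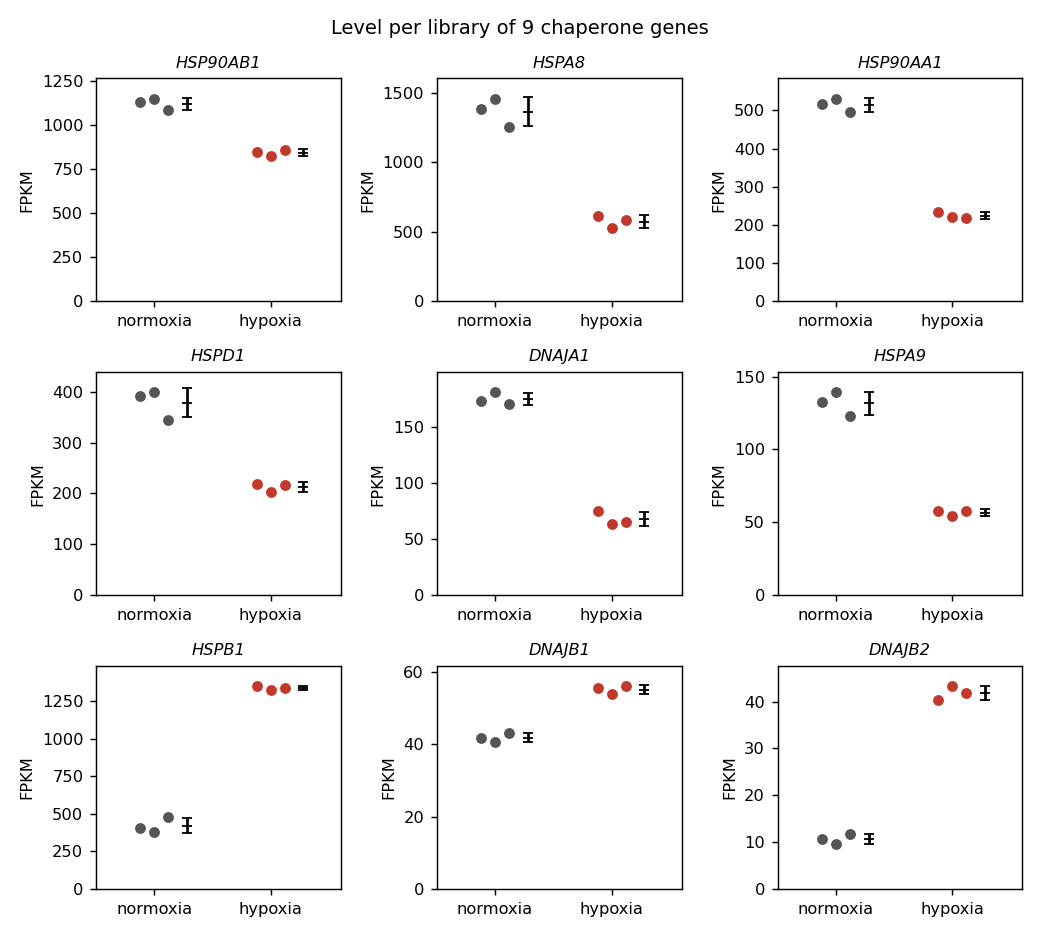
FPKM (vertical axes, from 0) of 9 chaperone genes in each library under normoxia (grey) and hypoxia (red), with the mean and SD of 3 libraries at the right of each group. The first 6 genes are lower in every hypoxia library, and HSPB1, DNAJB1 and DNAJB2 are higher in every hypoxia library.

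The DNAJA genes encode the general HSP40 partners of HSP70, and all were lower. DNAJA1 had 74.5, 63.3 and 65.2 FPKM under hypoxia and 173, 180 and 170 FPKM under normoxia, with no overlap (log2-fold change -1.41 ± 0.06, adjusted p = 2.86e-12). DNAJA3, the mitochondrial member, had 23.8, 21.0 and 23.3 FPKM against 49.5, 50.0 and 44.3 FPKM (log2-fold change -1.13 ± 0.07, adjusted p = 7.65e-11). DNAJA2 had 23.3, 21.5 and 22.3 FPKM against 34.9, 34.1 and 31.9 FPKM (log2-fold change -0.64 ± 0.06, adjusted p = 2.22e-08), and DNAJA4 changed by -0.73 on the same scale.

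The DNAJB genes are another class of HSP40. Of the 7 tested, 4 were higher and 1 was lower, where 39.2% of all genes tested were higher and 38.5% lower. These are too few to set against those shares. DNAJB2, which carries ubiquitin binding motifs and sorts clients to the proteasome, had 40.4, 43.3 and 41.8 FPKM under hypoxia and 10.6, 9.68 and 11.7 FPKM under normoxia. Every hypoxia library was above every normoxia library by a wide gap, and the gene was 3.80-fold higher (log2-fold change 1.92 ± 0.06, adjusted p = 8.31e-14). DNAJB1, the HSP40 that stress raises, had 55.6, 53.9 and 56.1 FPKM against 41.9, 40.6 and 43.1 FPKM (log2-fold change 0.35 ± 0.05, adjusted p = 6.93e-06). The level of DNAJB1 relative to DNAJA1, in FPKM, was 0.819 ± 0.0631 under hypoxia and 0.240 ± 0.0141 under normoxia (SD, n = 3 each).

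Of the other DNAJB genes, DNAJB5 (log2-fold change 0.72, adjusted p = 0.000883) and DNAJB4 (log2-fold change 0.45, adjusted p = 0.00975) were higher at levels of 0.857 to 2.34 FPKM. The call of DNAJB4 was lost without hypoxia library 2 (adjusted p = 0.0501) or normoxia library 3 (adjusted p = 0.0518). DNAJB12, of the ER membrane, was the only lower one (log2-fold change -0.45, adjusted p = 2.42e-06). DNAJB6, which keeps polyglutamine proteins from aggregating, had 47.8, 43.8 and 48.7 FPKM against 41.4, 42.5 and 43.7 FPKM and did not pass (log2-fold change 0.09, adjusted p = 0.167), although it did with the stricter filter on counts (adjusted p = 0.0137) and without hypoxia library 2 (adjusted p = 0.0311). DNAJB14 did not pass either (log2-fold change 0.02). DNAJB13, of the axoneme of sperm and cilia, had 4, 11 and 10 counts against 1, 0 and 1 and was too low to test.

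The DNAJC genes carry a J domain within otherwise unrelated proteins, and they are described here by where these work. The 5 that act at ribosomes, spliceosomes or chromatin were all lower, with a median of -0.68, where 38.5% of all genes tested were. They lie on both sides of 20 FPKM. Of all genes, 57.6% of those at that level or more and 33.9% of those under it were lower. DNAJC9, a chaperone of histones H3 and H4, had the largest decrease in log2-fold change of all 52 genes, from 50.3, 52.5 and 44.1 FPKM under normoxia to 16.3, 13.4 and 15.6 FPKM (log2-fold change -1.75 ± 0.08, adjusted p = 4.22e-12). A share of 24% of its exon bases lies opposite exons of FAM149B1, which was higher (log2-fold change 1.17), and whether the counting used the strand is not given in the sources used here. DNAJC2, which sits on the ribosome and was also found on chromatin, had 14.3, 13.9 and 13.9 FPKM under hypoxia and 38.7, 41.5 and 36.3 FPKM under normoxia (log2-fold change -1.52 ± 0.06, adjusted p = 1.31e-12). DNAJC8 and DNAJC17, both of the spliceosome, changed by -0.68 and -0.32, and DNAJC21, of ribosome assembly, by -0.35, all with lower values in every hypoxia library. Of the DNAJC17 exon bases, 20.4% lie opposite GCHFR, which was higher (log2-fold change 1.08).

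Cytosolic DNAJC7, which binds HSP70 and HSP90 at once, had 42.9, 43.7 and 44.9 FPKM under hypoxia and 56.1, 60.1 and 54.7 FPKM under normoxia (log2-fold change -0.43 ± 0.06, adjusted p = 3.05e-06). DNAJC24, needed to make diphthamide on elongation factor 2, was lower as well (log2-fold change -0.66, adjusted p = 1.87e-05). The levels of these were lower in each hypoxia library than in any normoxia library.

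Several DNAJC genes were higher under hypoxia. DNAJC4 had 11.8, 12.5 and 12.1 FPKM under hypoxia and 3.24, 3.90 and 4.0 FPKM under normoxia (log2-fold change 1.66 ± 0.12, adjusted p = 8.53e-10). Its transcript shares 16.7% of its stretches of 100 bases with the neighbouring NUDT22, which was higher too (log2-fold change 0.50). DNAJC18 (log2-fold change 1.54, adjusted p = 6.81e-07), DNAJC22 (log2-fold change 1.18, adjusted p = 2.43e-05) and DNAJC27 (log2-fold change 1.13, adjusted p = 1.61e-05) were higher as well, lying between 0.395 and 0.758 FPKM in the normoxia libraries and between 0.981 and 2.15 FPKM in the hypoxia libraries. DNAJC28 was near the limit of the test, with 24, 44 and 25 counts against 10, 16 and 16 (log2-fold change 1.03 ± 0.41). It too passed the filter through the hypoxia libraries alone, and its call was lost under the DESeq2 Wald test, with no filter, without hypoxia library 2 and without normoxia library 1. DNAJC16, DNAJC1 and DNAJC13 rose by 0.32, 0.29 and 0.18 on the log2 scale. The last of these, which acts on endosomes, lost its call without hypoxia library 2 (adjusted p = 0.0518), normoxia library 1 (0.0583) or normoxia library 2 (0.063), and DNAJC1 lost it without normoxia library 3 (0.0652).

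Of the 6 DNAJ genes of the ER membrane, DNAJC1, DNAJC16 and DNAJC18 were higher, DNAJB12 and DNAJC14 were lower and DNAJB14 did not pass, shares near the 39.2% higher and 38.5% lower of all genes tested. DNAJC14 changed by -0.29 (adjusted p = 0.000537), and 26.3% of its stretches of 100 bases also occur in the readthrough gene AC023055.1. Of the 4 whose proteins work at vesicles and endosomes, DNAJC13 and DNAJC27 were higher and DNAJC5 and DNAJC6 did not pass, too few to set against those shares. DNAJC5, the cysteine string protein of secretory vesicles, had 34.3, 35.7 and 35.5 FPKM under hypoxia and 32.0, 32.0 and 32.1 FPKM under normoxia. These groups did not overlap, and the difference was small and did not pass (log2-fold change 0.09, adjusted p = 0.115), although it did with limma on FPKM (adjusted p = 0.0318) and when no library could be under 10 counts (adjusted p = 0.00493). DNAJC6, which uncoats clathrin vesicles with HSPA8, had a log2-fold change of 0.16 (adjusted p = 0.310) and DNAJC25 one of -0.34 (adjusted p = 0.0737). DNAJC12 and DNAJC5G had at most 6 counts in a library.

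Direction went with level within the group. Of 24 chaperone genes that averaged 20 FPKM or more, 19 were lower (79.2%) and 3 were higher, HSPB1, DNAJB1 and DNAJB2. Among all tested genes at that level, 57.6% were lower. Of the 12 chaperone genes tested with a mean under 2 FPKM, 8 were higher and 1 was lower, and among all genes at that level 2440 of 4607 (53.0%) were higher. Without genes that passed the filter through 1 condition alone, HSPA1L and DNAJC28 among them, 6 of 10 chaperone genes and 1368 of 3161 genes at that level (43.3%) were higher. The tilt toward decreases in abundant genes and increases in rare genes was thus present in the whole table too.

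**Figure D4:**
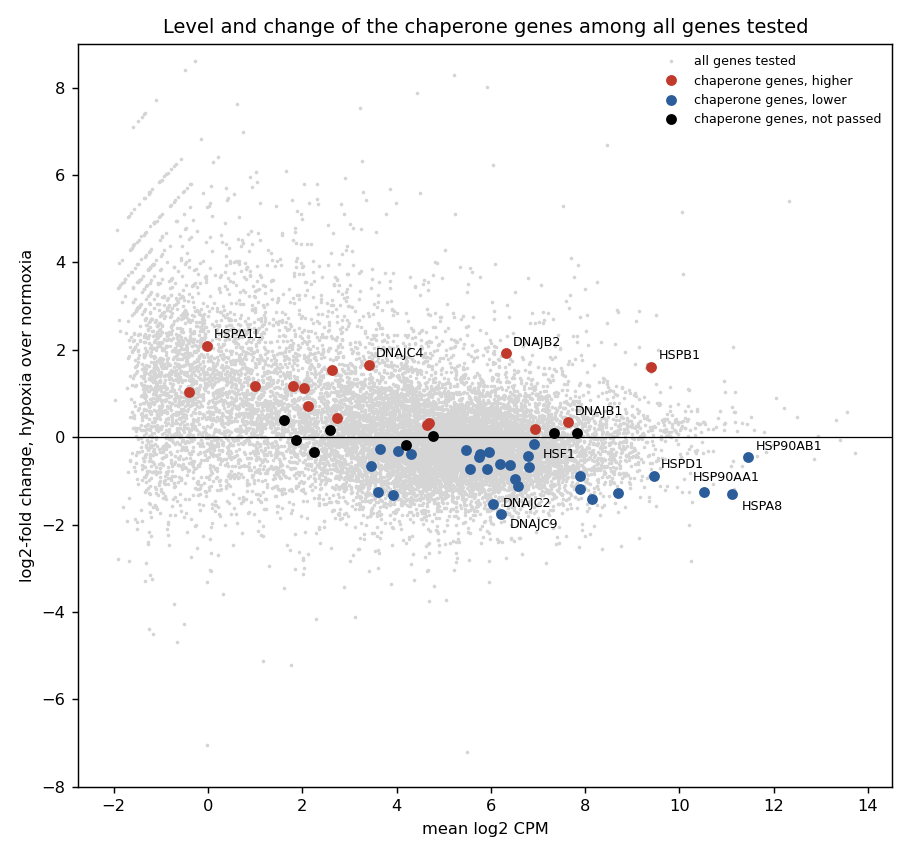
Mean log2 CPM over the 6 libraries (horizontal axis) against the log2-fold change of hypoxia over normoxia for all 14255 genes tested (grey) and the 52 chaperone genes (coloured by call). Most abundant chaperone genes lie below 0, with HSPB1, DNAJB2 and DNAJB1 above, and most of the rare ones lie above.

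Proteins that work with HSP90 were then read from the same test. Of 16 HSP90 co-chaperones, 14 were tested, and 13 were lower, with a median of -0.76, where 38.5% of all genes tested and 57.6% of those at 20 FPKM or more were lower. Among all genes under 20 FPKM, where some of the co-chaperones lie, 33.9% were lower. The same shares stand behind the lists that follow. NUDC, a co-chaperone that links HSP90 to dynein and to cell division, had 110, 96.5 and 106 CPM under hypoxia and 259, 281 and 244 CPM under normoxia (log2-fold change -1.32 ± 0.06). FKBP4, which serves steroid receptors, changed by -1.31, AHSA1, which speeds up the ATPase of HSP90, by -1.30, and CHORDC1 by -1.07.

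The factors that bind HSP70 or release its nucleotide were lower in 6 of 8 cases, with a median of -0.50. BAG2, an exchange factor and inhibitor of the ubiquitin ligase STUB1, had 10.4, 10.0 and 8.69 CPM under hypoxia and 44.5, 46.0 and 37.8 CPM under normoxia (log2-fold change -2.14 ± 0.10, adjusted p = 2.28e-12), a larger decrease than that of any of the 52 chaperone genes. HSPBP1 (-1.12), an exchange factor, and BAG1 (-0.68) followed. HSPBAP1, which was listed with them but is known to bind HSPB1, was lower too (-0.61) and was left out of the count after its value was seen. BAG3 changed by -0.38, ST13 was higher (0.29) and BAG6 did not pass (-0.02, adjusted p = 0.758).

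The cytosolic chaperonin TRiC/CCT, which folds actin and tubulin, and prefoldin, which brings them to it, had 12 of 14 genes lower (85.7%), with a median of -0.81, against 57.6% of all genes at 20 FPKM or more. CCT5 had 364, 323 and 353 CPM under hypoxia and 962, 1004 and 910 CPM under normoxia (log2-fold change -1.47 ± 0.06, adjusted p = 5.23e-13). CCT2 changed by -1.21, TCP1 by -1.03 and PFDN2 by -0.96. All 8 CCT genes were lower, PFDN5 was higher (0.26) and PFDN4 did not pass (-0.16).

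The partners of mitochondria and the ER were read in the same way. Of 11 mitochondrial partners and proteases, 8 were lower and 3 did not pass (median -0.48), led by DNLZ (-1.11), the escort of HSPA9, and TRAP1 (-0.81), the HSP90 of mitochondria. Of 13 ER chaperones, 7 were lower, 5 did not pass and 1 was higher (median -0.18). SDF2L1 (-1.27), HYOU1 (-0.73), DNAJB11 (-0.67) and HSPA5 (-0.61), the HSP70 of the ER, had the largest decreases of these, and HSP90B1, the HSP90 of the ER, was slightly higher (0.12, adjusted p = 0.0413). Differences between these lists were not tested.

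**Figure D5:**
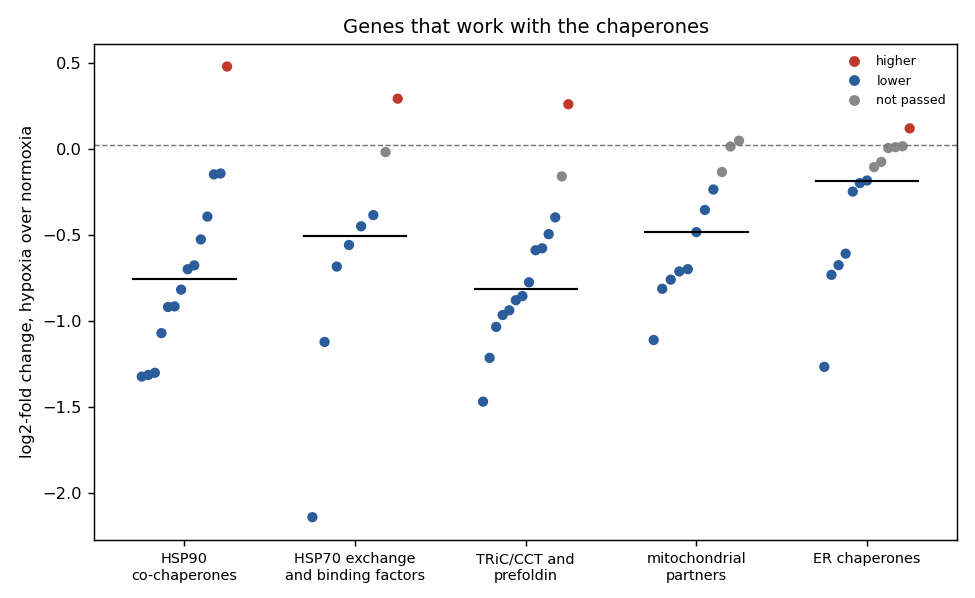
The log2-fold change of hypoxia over normoxia for each tested gene of 5 lists of chaperone partners, HSPBAP1 left out. A line gives the median of each list, and a dashed line that of all genes tested (0.02). Medians run from -0.81 for TRiC/CCT and prefoldin to -0.18 for the ER chaperones.

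A list of 20 textbook target genes of HSF1, which overlaps the chaperones and their partners, had 16 lower and 3 higher of 19 tested, with a median of -0.88, where 38.5% of all genes tested and 57.6% of those at 20 FPKM or more were lower. HSPB1 and DNAJB1 were among the higher ones.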

How the data were processed

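RNA sequencing measured 6 libraries of the SCC25 line, 3 under hypoxia and 3 under normoxia, grouped by the sample labels. The authors deposited counts, whole reads per gene without normalization, and FPKM of the same genes, which for the chaperones follow from the counts, 1 gene length and the total of each library. Per the labels, libraries were made with a SMARTER mRNA kit, and the submitters' processing notes name the mouse builds GRCm38 and mm10, although symbols and Entrez numbers are human. Aligner, counting tool and use of strand are not given in the sources used here, so no coordinates were taken from the files. Replicates differed by more than sampling noise (chi-square per gene 5.11 to 11.5). Nothing says that they came from separate cultures, so p-values measure the spread between these libraries.

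Counts were tested over all genes with edgeR 4.0.16 (TMM, filterByExpr, glmQLFit and glmQLFTest, condition as the only term) in R 4.3.3, with Benjamini-Hochberg adjustment at 0.05. The biological coefficient of variation was 0.0685. CPM were scaled by TMM, with a prior count of 2 for log2 CPM. Totals of 29637189 to 37278703 counts leave genes with a few counts imprecise, and 6 members were not tested. Alternatives were DESeq2 1.42.0, its size factors in edgeR, no filter, no library under 10 counts, a replicate block, fits without each library in turn, and limma 3.58.1 on log2(FPKM + 1) or log2(FPKM + 0.1) with a mean of at least 1 FPKM or no filter.

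The members, the lists of partners and markers and the tests were chosen with earlier results of these data known. Named with values are HSF1, a core of 17 chaperones, up to 12 largest increases and 12 largest decreases that passed the test with no overlap and a mean of 1 log2 CPM or more, the 8 genes with the highest mean FPKM, members that did not pass, and up to 4 changes of each other list. HSPA1L, HSPA6, DNAJB13, DNAJC14, DNAJC15, DNAJC17, DNAJC21, DNAJC24, DNAJC28, DNAJA4, DNAJB12, HSPA4L, HSPB11, BAG3, and other genes in the text outside this rule were added after their values were seen. Shared stretches and exons came from GENCODE v29 and promoters from RefSeq (GRCh38.p14). Results for some single genes of the lists are not reported here.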

Additional observations from a re-analysis of the deposited data

How the results depend on the processing

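Every one of the counts of higher and lower chaperone genes stayed within 1.5 times its main value, from 13 to 17 higher and from 27 to 31 lower over all alternatives. The count with a log2-fold change over 1 was 9 and was 3 with limma on log2(FPKM + 1), with or without a filter. It was 5 on log2(FPKM + 0.1), where the filter of 1 FPKM left out 4 of the 9 and the other 5 all stayed. The median log2-fold change of -0.33 moved to -0.26 when no library could be under 10 counts and to -0.13 with limma on log2(FPKM + 1) without a filter. Leaving out 1 library at a time gave medians of -0.38 to -0.32, 13 to 15 higher, 28 to 29 lower, 8 to 9 over 1 and 10 to 11 under -1. A change of sign was seen only for DNAJB14 (-0.018 without a filter, -0.0087 without hypoxia library 2 and -0.055 without normoxia library 1) (range -0.055 to 0.056 over libraries left out) and HSPA12A (0.0083 with at least 10 counts, 0.062 without hypoxia library 3 and 0.014 without normoxia library 1, range -0.20 to 0.062), neither of which had passed. The cause was not tested. The stricter filter moved the median of all genes by 0.077 and no filter by -0.041. DNAJC15 lost its call under the DESeq2 Wald test, the stricter filter, the 3 limma fits and without hypoxia library 1, hypoxia library 2 or normoxia library 2. HSPA2 passed without normoxia library 2 (adjusted p = 0.0309) and in the 2 filtered limma fits (0.0237 and 0.0308) but not in limma without a filter (0.0743), DNAJC30 without a filter (0.0399) and without normoxia library 2 (0.0237), and DNAJC25 without hypoxia library 2 (adjusted p = 0.0197), without a filter (0.0478) and with limma on log2(FPKM + 1) above the filter (0.0486). Libraries with the same number did not deviate together (correlations 0.018, -0.069 and 0.0012 for numbers 1 to 3). With the replicate block, 15 genes were higher and 29 lower with a median of -0.33, and all 52 calls were the same. Genes under about 1 CPM, such as HSPA1L and DNAJC28, are limited by depth.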
